A study of Mus musculus with 6 samples.

Results

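The 10 genes described here, Plin1, Pck1, Cidea, Ces1d, Adrb3, Acacb, Dgat2, Fabp4, Lpl and Pparg, are genes of mature fat cells, 10 of the 13730 genes measured in 6 mouse mammary tumors. They were selected by symbol, as adipocyte genes whose levels differed between single tumors, so the levels in each tumor are what chose them and are given as a description without a test. All tumors grew from C0321, a triple-negative breast cancer (TNBC) line that is 1 clone from mice with a conditional knockout of Lunatic Fringe (Lfng) on the FVB background. The line, mixed with Matrigel, had been placed in the mammary fat pad of female FVB mice aged 6 to 10 weeks. Of the 6 tumors, 3 were controls and 3 came from mice given sulindac sulfide (SS), a non-steroidal anti-inflammatory compound. It was given by mouth at 60 mg/kg each day for 14 days. In the sample labels the drug appears as a sulfate, and the control is saline in the series description and vehicle in the paper. Both groups carried the same Lfng-deficient tumor cells, and RNA was taken from tumor tissue without a stated separation of host cells.

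White fat cells fill most of the mammary gland of a mouse and store triglyceride in a single large droplet. Perilipin 1, the product of Plin1, coats that droplet and holds lipases away from it until catecholamines act on the beta-3 adrenergic receptor, the product of Adrb3. The nuclear receptor PPARG, together with C/EBP proteins, drives fat cell formation and is known to switch on many of the other genes in the list.

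The values are estimated counts per gene, expressed as counts per 1000000 counts of a library (CPM), with library sizes scaled by TMM, a method that evens out differences in composition between libraries. Totals were 12314368, 20486368 and 24441522 estimated counts for controls 1 to 3 and 13696665, 8468914 and 12071346 for SS 1 to 3. The 3 counts used as the floor for a gene at 0 corresponded to between 0.123 and 0.357 CPM. Of all genes, 10902 passed the filter on low counts, and all 10 members were among them. Pck1, Cidea and Ces1d were at 0 in 3 tumors, and Plin1, Adrb3 and Fabp4 had 7 counts or fewer in the same tumors. All of these passed the filter only through the tumors in which they were high.

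Promoters of 4 of the 10 genes were matched by symbol in RefSeq's GRCm38.p6 table, which gives 3 start sites for Pparg. The 3 printed here belong to the droplet coat gene, to the gene with the widest spread of the 10 between tumors, and to the downstream start site of Pparg, whose transcript took different shares in different tumors. They are the 250 bases before the start, written on the strand of the gene, and capitals mark matches to the motifs searched on both strands: TTGCNNAA (a C/EBP-type site), TGACG (part of the cyclic AMP response element), AGGTCA (a nuclear receptor half-site), TATAAA, and DR1, 2 copies of AGGNCA with 1 base between them, to which PPARG is known to bind with RXR.
Plin1, chr7:79732777-79733026, minus strand: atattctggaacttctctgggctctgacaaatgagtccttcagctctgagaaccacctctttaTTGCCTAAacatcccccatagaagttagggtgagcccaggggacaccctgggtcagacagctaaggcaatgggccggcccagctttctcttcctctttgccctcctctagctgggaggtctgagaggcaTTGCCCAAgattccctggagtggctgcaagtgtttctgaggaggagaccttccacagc
Pck1, chr2:173152823-173153072, plus strand: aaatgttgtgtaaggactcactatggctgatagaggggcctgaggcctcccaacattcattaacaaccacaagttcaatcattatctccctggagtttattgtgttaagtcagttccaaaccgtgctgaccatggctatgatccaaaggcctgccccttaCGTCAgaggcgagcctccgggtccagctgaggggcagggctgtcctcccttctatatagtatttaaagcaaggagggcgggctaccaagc
Pparg downstream start, chr6:115421816-115422065, plus strand: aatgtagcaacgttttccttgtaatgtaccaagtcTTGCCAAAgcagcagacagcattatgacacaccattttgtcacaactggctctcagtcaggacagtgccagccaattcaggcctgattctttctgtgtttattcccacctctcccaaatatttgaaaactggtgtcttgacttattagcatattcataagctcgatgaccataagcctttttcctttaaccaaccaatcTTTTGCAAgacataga

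The Plin1 promoter held TTGCNNAA at -187 and -58 from the start, and the downstream Pparg promoter held it at -215 and -16, positions being those of the first base on the strand of the gene. TTGCNNAA occurs in 10.8% of the 32851 promoters of the table, counted over 250 bases before and 50 bases after the start. Pck1 held TGACG at -90, on the opposite strand, a motif found in 20.8% of promoters. AGGTCA was found in the promoters of both upstream Pparg starts and of Acacb, against 16.3% of all promoters. TATAAA, present in 13.6% of promoters, was found for Acacb and for 1 upstream start of Pparg. DR1 was found in none of the 6 promoters and in 0.381% of all. AGGTCA and DR1 can overlap, and the matches are letters only.

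The 10 genes shared 1 order of tumors. Each was higher in control 1, SS 1 and SS 2 than in control 2, control 3 and SS 3, an arrangement that 7.4% of all genes tested also had and that the choice of members fixed. Summed over the 10 genes, the level was 401, 38.8 and 22.8 CPM for controls 1 to 3, compared with 242, 233 and 67.1 CPM for SS 1 to 3. Control 1 therefore held the most and control 3 the least of all tumors, and both groups contained high and low tumors. The high tumors had between 8468914 and 13696665 counts in all and the others between 12071346 and 24441522, so that depth moved with the levels in part, and its part in them was not tested. In bulk tissue, fewer fat cells and less of these RNAs per cell cannot be told apart.

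**Figure D1:**
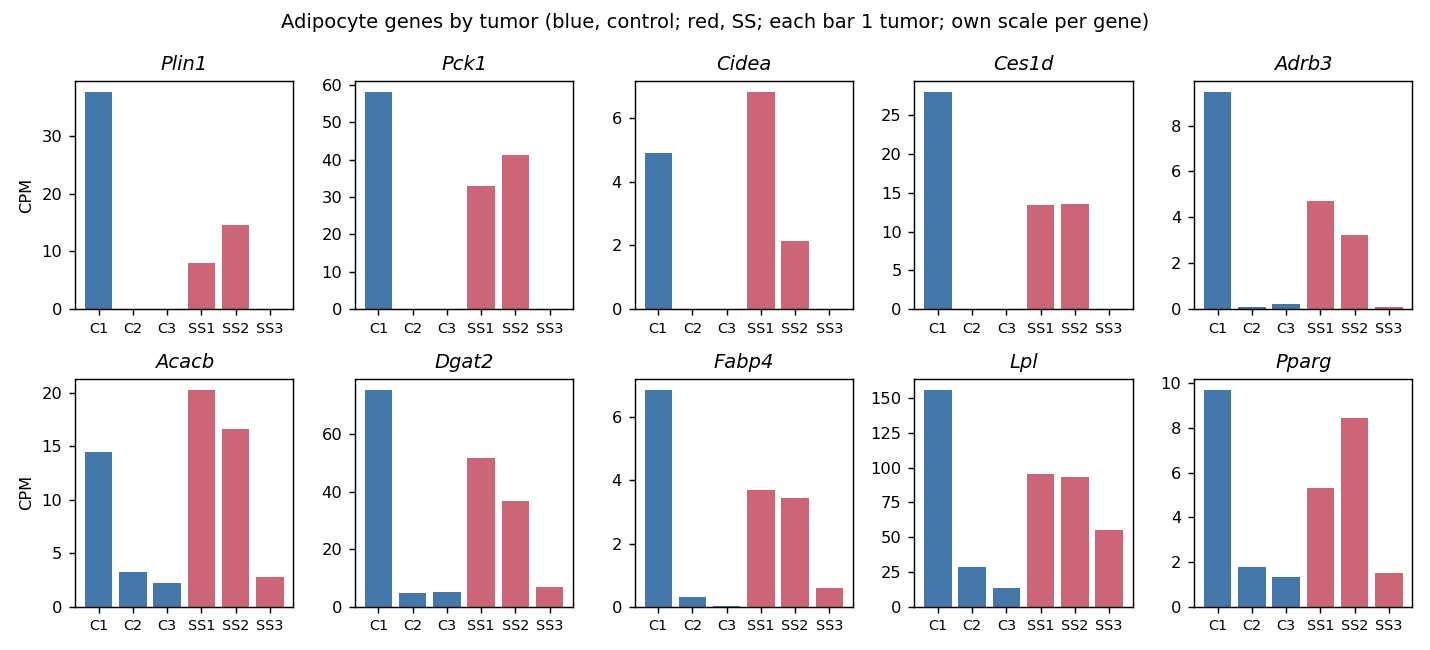
Level of each of the 10 genes in CPM (vertical axis, own scale for each gene, starting at 0) in each tumor (horizontal axis: C1 to C3, control; SS1 to SS3, SS-treated), 1 bar per tumor. Control 1, SS 1 and SS 2 hold the 3 tallest bars in every panel, and Plin1, Pck1, Cidea and Ces1d are at or next to 0 in the other tumors.

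Among the genes of the droplet surface, Plin1 (chr7:79721164-79732777, minus strand, 9 exons) was at 37.7, 0.0982 and 0 CPM in control tumors and at 8.05, 14.6 and 0 CPM in SS tumors. These levels rest on 478, 2 and 0 counts and on 111, 123 and 0 counts. Both groups thus ran from 0 to a clear signal and overlapped fully. Cidea (chr18:67343564-67367795, plus strand, 5 exons), which promotes the fusion of lipid droplets and is known from brown and beige fat, was at 4.90, 0 and 0 CPM in control tumors and at 6.81, 2.14 and 0 CPM in SS tumors. It was 1 of only 2 members with the highest level in SS 1, and its low counts (62 in control 1, 94 in SS 1 and 18 in SS 2) leave its levels imprecise. An annotated gene on the other strand, B430212C06Rik, overlaps Cidea, and whether the counting used strand is not given in the sources used here.

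Of the genes that break down stored fat, Ces1d (chr8:93166072-93197805, minus strand, 14 exons) encodes a carboxylesterase that hydrolyzes triglyceride. Its levels were 28.0, 0 and 0 CPM in control tumors, with 13.4, 13.5 and 0 CPM in the SS group. SS 1 and SS 2 were almost equal for this gene, and control 1 was 2.08 times as high as either. Control 1 exceeded control 2 by at least 190-fold and control 3 by at least 227-fold, taken against the floor of 3 counts per tumor. An annotated gene on the same strand, Gm45909, overlaps Ces1d, so that reads between them could be split. Adrb3 (chr8:27225776-27229589, minus strand, 4 exons), the receptor through which noradrenaline starts lipolysis in mouse fat, was at 9.47, 0.0982 and 0.205 CPM in control tumors and at 4.71, 3.22 and 0.0844 CPM in SS tumors. The 3 low tumors held 2, 5 and 1 counts of it, and the annotation places Gm45470 on its other strand.

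Pck1 (chr2:173153073-173159254, plus strand, 10 exons) encodes the cytosolic phosphoenolpyruvate carboxykinase, which in fat cells supplies glycerol for the re-esterification of fatty acids. It was at 58.2, 0 and 0 CPM in control tumors and at 33.1, 41.4 and 0 CPM in SS tumors. No count of Pck1 was found in control 2, control 3 and SS 3, against 737, 456 and 348 counts in the high tumors. Control 1 was at least 395-fold above control 2, and SS 2 was at least 164-fold above SS 3, on the same floor. Its spread over the 6 tumors, an SD of 4.59 in log2 CPM, was among the widest of all genes tested.

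Dgat2 and Acacb belong to fat synthesis. Dgat2 (chr7:99153663-99182714, minus strand, 8 exons), which catalyzes the last step of triglyceride assembly, was at 75.6, 4.71 and 5.25 CPM in control tumors and at 51.8, 36.7 and 7.01 CPM in SS tumors. Acacb (chr5:114165518-114250759, plus strand, 52 exons), the acetyl-CoA carboxylase at mitochondria that makes malonyl-CoA and so restrains fatty acid oxidation, was at 14.5, 3.24 and 2.21 CPM in control tumors and at 20.3, 16.6 and 2.79 CPM in SS tumors. Neither was near 0 in the low tumors, where Dgat2 had between 83 and 128 counts and Acacb between 33 and 66. Acacb was the only member with control 1 below both SS 1 and SS 2. Gm13784 lies on the strand opposite to Acacb.

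Lpl and Fabp4 serve the uptake and carriage of fatty acids. Lpl (chr8:68880555-68906933, plus strand, 10 exons), a lipase that frees fatty acids from circulating lipoproteins and is also made by muscle and macrophages, was at 156, 28.6 and 13.7 CPM in control tumors and at 95.1, 93.1 and 55.1 CPM in SS tumors. It had the narrowest gap between high and low tumors, with SS 2 only 1.69 times as high as SS 3. Fabp4 (chr3:10204343-10208577, minus strand, 4 exons), a fatty acid carrier of fat cells that macrophages and capillaries can also express, was at 6.87, 0.295 and 0.0410 CPM in control tumors and at 3.70, 3.45 and 0.591 CPM in SS tumors. The low tumors held 6, 1 and 7 counts of Fabp4, so its ratios there are imprecise.

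Pparg (chr6:115361144-115490402, plus strand), the nuclear receptor named above, was at 9.71, 1.77 and 1.35 CPM in control tumors and at 5.29, 8.46 and 1.52 CPM in SS tumors. Its spread was the smallest of the 10, an SD of 1.25 in log2 CPM, which was still above 94.4% of all genes tested. Pparg is overlapped by Gm44079 on the other strand. The deposited table splits it into 3 transcripts, 2 from upstream starts and 1 from the downstream start at position 115422066, whose promoter is shown above and which is known as the start of the fat cell isoform. The downstream transcript held 78.0%, 99.5% and 11.4% of the estimated Pparg counts in controls 1 to 3, but 72.0%, 0.0613% and 100% in SS 1 to 3. SS 2, a high tumor, thus had its 71 Pparg counts assigned to the upstream starts, in contrast to control 1 and SS 1. With between 18 and 123 counts per tumor over transcripts that share most of their sequence, these assignments are estimates of the authors' counting tool without a stated error. The 2 Plin1 transcripts in the table have the same start and end, and held near-equal shares in control 1, at 49.6% and 50.4%, but 81.1% and 18.9% in SS 2.

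Per kilobase of transcript, Lpl and Dgat2 had the highest levels in control 1, at 37.8 and 33.4 CPM per kb. Pck1 followed at 21.9 and Plin1 at 19.7 CPM per kb, and Acacb, on a transcript of 8482 nucleotides, was the lowest at 1.71 CPM per kb. In SS 3, where Plin1, Pck1, Cidea and Ces1d had no count, Lpl remained at 13.4 CPM per kb and Dgat2 at 3.10. As a share of the counts of all 10 genes, Lpl made up 38.8% (95% Wilson interval 37.5 to 40.2) in control 1, 39.3% (37.6 to 40.9) in SS 1 and 39.9% (37.8 to 42.1) in SS 2. These 3 intervals overlap. The share of Lpl was 73.7% (70.5 to 76.6) in control 2, 60.2% (56.1 to 64.2) in control 3 and 82.1% (79.3 to 84.6) in SS 3, above that in each high tumor. Intervals and floors cover counting error only.

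The high tumors also differed in their mix of members. Cidea made up 45.9% (39.2 to 52.7) of the counts of Cidea and Plin1 together in SS 1, against 11.5% (9.06 to 14.4) in control 1 and 12.8% (8.23 to 19.3) in SS 2. Acacb made up 71.6% (66.9 to 75.9) of the counts of Acacb and Plin1 in SS 1, 53.1% (47.0 to 59.0) in SS 2 and 27.8% (24.5 to 31.3) in control 1. The low level of Plin1 itself in SS 1 enters both shares, as Plin1 made up 3.32% of the counts of the 10 genes there, against 9.42% in control 1 and 6.28% in SS 2. Nnat, no member, had its highest share beside Plin1 in SS 2, at 33.5% (27.1 to 40.6), with 17.6% (14.7 to 20.9) in control 1 and 22.9% (16.8 to 30.4) in SS 1. Ppargc1a, a coactivator of mitochondrial and brown fat genes, had 115 counts in control 1, 63 in SS 1 and 0 in SS 2. Against 123 counts of Plin1 in SS 2, that 0 gives an upper bound of 3.03% for its share, compared with 19.4% (16.4 to 22.8) in control 1 and 36.2% (29.4 to 43.6) in SS 1. Each of these values comes from 1 tumor and its interval holds counting error alone, so the differences describe tumors and not treatments.

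**Figure D2:**
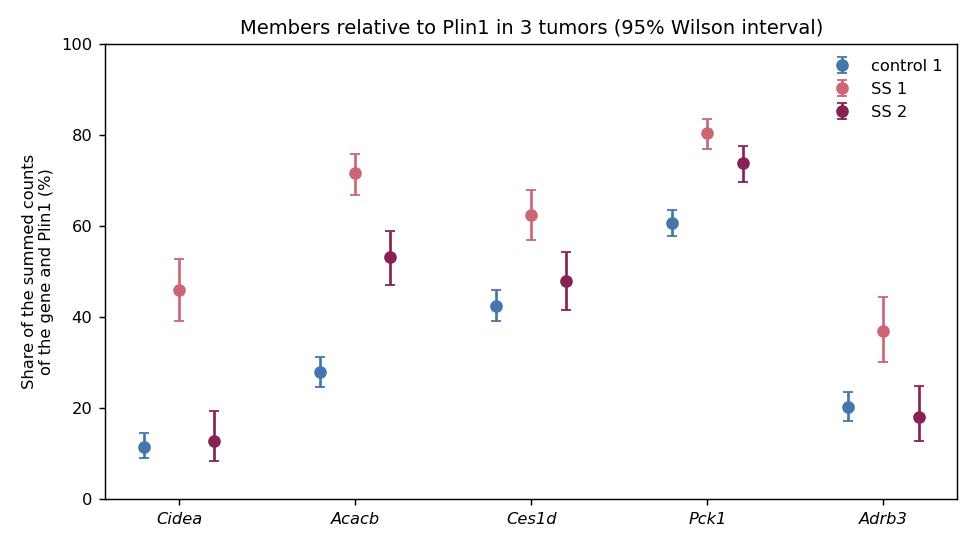
Share (vertical axis, %) of each gene in the summed counts of that gene and Plin1, in the 3 tumors with clear Plin1 counts (colors), with 95% Wilson intervals as bars. SS 1, where Plin1 was the lowest of the 3, has the highest share for all 5 genes, and Cidea is at 45.9% there against 11.5% in control 1.

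SS-treated tumors were next compared with control tumors, the question of the study's design. Fitted on all genes with edgeR's quasi-likelihood test, 0 of 10902 genes (0%) passed an adjusted p of 0.05, and 693 (6.36%) had an unadjusted p under 0.05. Both limma-based fits also gave 0 genes, and DESeq2 gave 35 of 6039 genes (0.58%) under an adjusted p of 0.05. Of the members only Pck1, Dgat2 and Lpl had an adjusted p in DESeq2, and none of these was called. None of the 10 members had an unadjusted p under 0.05 in edgeR, where the values ran from 0.270 to 0.988. The log2 fold change of SS over control was positive for 7 members and negative for Plin1, Ces1d and Adrb3. The median was 0.22, against a median SE of 1.5 and a median over all genes of 0.00. The directions depended on the method too, with all 10 positive and a median of 1.18 under quantile normalization with limma and of 2.04 under limma-voom.

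The spread within groups exceeded the difference between them for each gene. Plin1 averaged 12.6 ± 21.8 CPM (SD, n = 3) in control and 7.57 ± 7.34 CPM after SS, with a log2 fold change of -0.73, an SE of 1.95 and an edgeR adjusted p of 0.954. Pck1 averaged 19.4 ± 33.6 CPM in control and 24.8 ± 21.9 CPM after SS, with a log2 fold change of 0.38, an SE of 2.03 and an edgeR adjusted p of 0.977. Acacb had the largest fitted change, 6.66 ± 6.83 CPM in control and 13.2 ± 9.22 CPM in SS tumors, with a log2 fold change of 1.01, an SE of 0.85 and an edgeR adjusted p of 0.890. Lpl had the smallest SE, 0.77, with 66.0 ± 78.0 CPM in control and 81.1 ± 22.5 CPM in SS tumors and a log2 fold change of 0.31. For Dgat2 the means were 28.5 ± 40.8 and 31.8 ± 22.8 CPM, and for Pparg 4.28 ± 4.71 and 5.09 ± 3.47 CPM. Control and SS means of the droplet protein gene Cidea were 1.63 ± 2.83 and 2.99 ± 3.48 CPM, and those of the esterase gene Ces1d, nearly equal, were 9.32 ± 16.1 and 8.96 ± 7.76 CPM. The receptor gene Adrb3 averaged 3.26 ± 5.38 and 2.67 ± 2.36 CPM and the carrier gene Fabp4 2.40 ± 3.87 and 2.58 ± 1.73 CPM. Over all 10 genes the adjusted p lay between 0.890 and 0.997 in edgeR. The labels give the replicates a number only, so p-values measure the spread between these samples, which may be partly technical.

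The values depended on 1 control tumor. Without control 1, all 10 members were higher in the mean of the SS tumors and had an unadjusted p under 0.05 in edgeR, beside 877 of 11228 genes (7.81%) in the same fit. The levels that chose the members, with control 1 as the high control tumor, fix this outcome, so the fit without it is a description and no test of SS. SS 3 was above control 2 and control 3 for Lpl, Dgat2 and Fabp4, was not above control 2 for Adrb3, Acacb and Pparg, and was at 0 for Plin1, Pck1, Cidea and Ces1d. The median log2 fold change of the members was then 3.98 in place of 0.22. Lpl changed by 1.94 with an SE of 0.38, Dgat2 by 2.67 with an SE of 0.75 and Pparg by 1.69 with an SE of 0.71. Against control 2 and control 3, both at 0, Pck1 was at least 184-fold, Ces1d at least 66.3-fold and Cidea at least 22.1-fold higher in the mean of the SS tumors. With these 3 at their bounds the median is also 3.98, as Fabp4 and Adrb3 set it, which rest on 7 counts or fewer in each low tumor. No gene passed adjustment in that fit. The direction of Plin1, Ces1d and Adrb3, negative with all tumors, was positive without control 1.

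**Figure D3:**
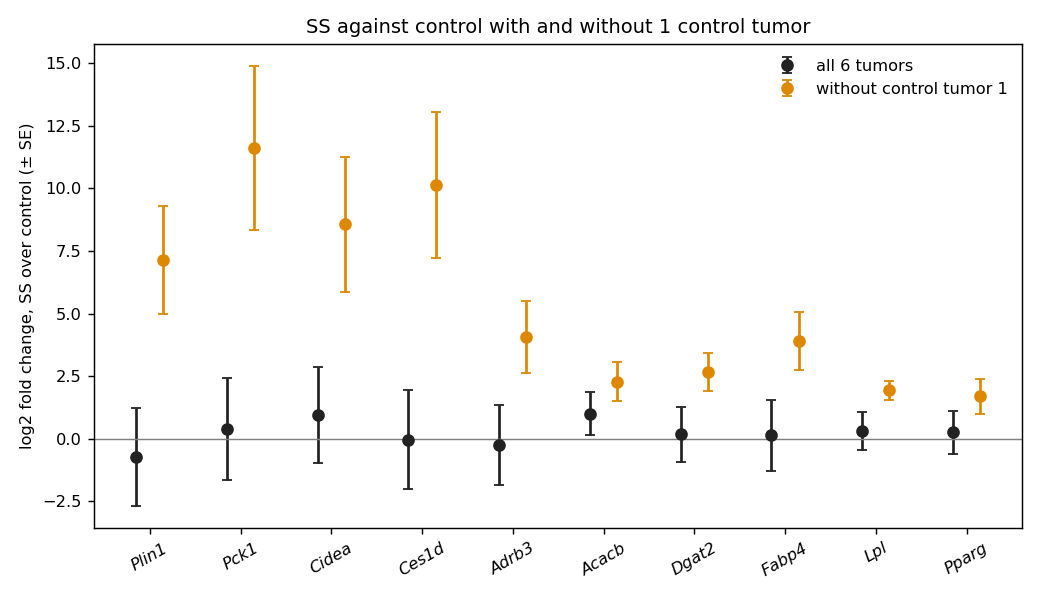
Log2 fold change of SS over control (vertical axis) for the 10 genes (horizontal axis), fitted with edgeR on all 6 tumors (black) and without control tumor 1 (orange), with bars of ± 1 SE. The black points lie between -0.73 and 1.01 and the orange points between 1.69 and 11.61; orange points of genes at or near 0 in control 2 and control 3 depend on the fit's handling of zeros.

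The name of the set, fat cell genes, was checked against other fat cell markers, of which several defining ones were at or near 0. Adipoq, encoding adiponectin and among the most abundant RNAs of fat cells, had 3, 1 and 0 counts in control tumors, with 3, 5 and 0 counts in the SS group. Cfd (adipsin) had counts only in control 1 and SS 2, 12 and 4, and Lep (leptin) only in control 1 and SS 1, 14 and 3. Cidec had at most 4 counts in any tumor. Retn was not among the genes of the table, nor were Aqp7, Gpihbp1 and Plin5. Low counts were not limited to fat cell genes, since B2m, which nearly every cell expresses, had between 1.66 and 3.84 CPM, and Cox6c, a subunit of cytochrome oxidase, at most 0.344 CPM. Where counted, Adipoq and Cidec shared the order of the members, and the few counts of Cfd and Lep fell in high tumors. The name describes how the genes are known, and the counts of these markers are too low to check it.

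Beyond the members, 62 of 75 further genes on a list of adipocyte functions were in the table and 50 were tested. Of these, 22 (44.0%) were higher in control 1, SS 1 and SS 2 than in every other tumor, beside 7.4% of all genes tested. Some of the 22, such as Thrsp, Nnat and Plin4, had 2 counts or fewer in each low tumor. They passed the filter through the tumors in which they were high. The list was also chosen with earlier results of these tumors known, so the share is a description and no test. In the group contrast none of the 50 was higher and 1 lower in SS tumors at an unadjusted p under 0.05, with a median log2 fold change of 0.05, and none passed edgeR's adjustment. Without control 1 that median was 0.48, beside 3.98 for the members.

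The lipolysis genes held the same order of tumors in 3 of 4 tested. Lipe, hormone-sensitive lipase, was at 35.1, 7.22 and 5.41 CPM in control tumors and at 18.6, 28.0 and 10.7 CPM in SS tumors. Pnpla2, the adipose triglyceride lipase, and Mgll, the monoglyceride lipase, shared the order, whereas Abhd5, the coactivator of Pnpla2, did not. Among genes of glycerol and glucose supply it was again 3 of 4. Gpd1, which makes glycerol 3-phosphate, was at 30.2, 1.96 and 0.0820 CPM in control tumors and at 30.7, 12.6 and 1.44 CPM in SS tumors. The insulin-responsive glucose transporter Slc2a4 and pyruvate carboxylase, Pcx, were the other two.

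For uptake and binding the count was 3 of 5 and included the fatty acid transporter Cd36 and the acyl-CoA synthetase Acsl1. On the list kept as secreted factors it was 2 of 3, namely Rbp4, the retinol carrier, and Nnat, which is known as a membrane proteolipid and not as a secreted protein. Of the 10 synthesis genes tested, 4 shared the order. Among them Scd1, the desaturase that makes oleic acid, was at 364, 18.4 and 25.4 CPM in control tumors and at 134, 103 and 27.6 CPM in SS tumors, and Thrsp, a regulator of lipid synthesis, was counted in the high tumors alone, with 56, 43 and 7 counts. Fasn, fatty acid synthase, was high in control 1 and SS 1, at 336 and 334 CPM, and stood at 127 CPM in SS 2, below the 135 CPM of control 2.

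The order was also found for 2 of 7 genes of the droplet coat, Plin4 being 1 of them, and for 4 of 10 transcription factors. Cebpa, a partner of PPARG, had the order within a narrow range, 227, 195 and 184 CPM in control tumors, with 233, 222 and 206 CPM in the SS group. Plin2, the droplet coat protein of cells outside fat, ran the other way, at 67.9, 81.6 and 119 CPM in control tumors and at 68.7, 67.8 and 98.8 CPM in SS tumors. Of 5 receptors tested 1 shared the order, and of 2 tested genes of brown and beige fat, Ppargc1a and Dio2, neither did. Ucp1, the defining gene of brown fat, was not among the genes of the table.

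Likeness to the members was measured as the correlation of each gene's log2 CPM with the mean of the members' standardized log2 CPM over the 6 tumors, a description over points that share libraries and depth. Between members, Pearson's r ran from 0.825 for Adrb3 with Lpl to 0.999 for Pck1 with Ces1d over 45 pairs, with a median of 0.958. Of 10892 other genes, 184 (1.69%) had an r above 0.9, and among the 50 tested genes of the adipocyte list 17 did. The 10 most alike genes outside the members were Plch2, Wnk2, Ism1, Trpv1, Otop1, Foxa1, Scyl3, Stat5a, Gipc2 and Hoxa3, with r from 0.984 to 0.998. Several were low, and Trpv1, Otop1 and Gipc2 had at most 1.66 CPM in any tumor. Foxa1, a transcription factor of luminal mammary cells, was at 30.6, 1.03 and 1.15 CPM in control tumors and at 24.6, 23.2 and 1.01 CPM in SS tumors. Stat5a, the transducer of prolactin signals in mammary epithelium, was at 74.8, 45.4 and 38.6 CPM in control tumors and at 70.2, 73.2 and 43.0 CPM in SS tumors.

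**Figure D4:**
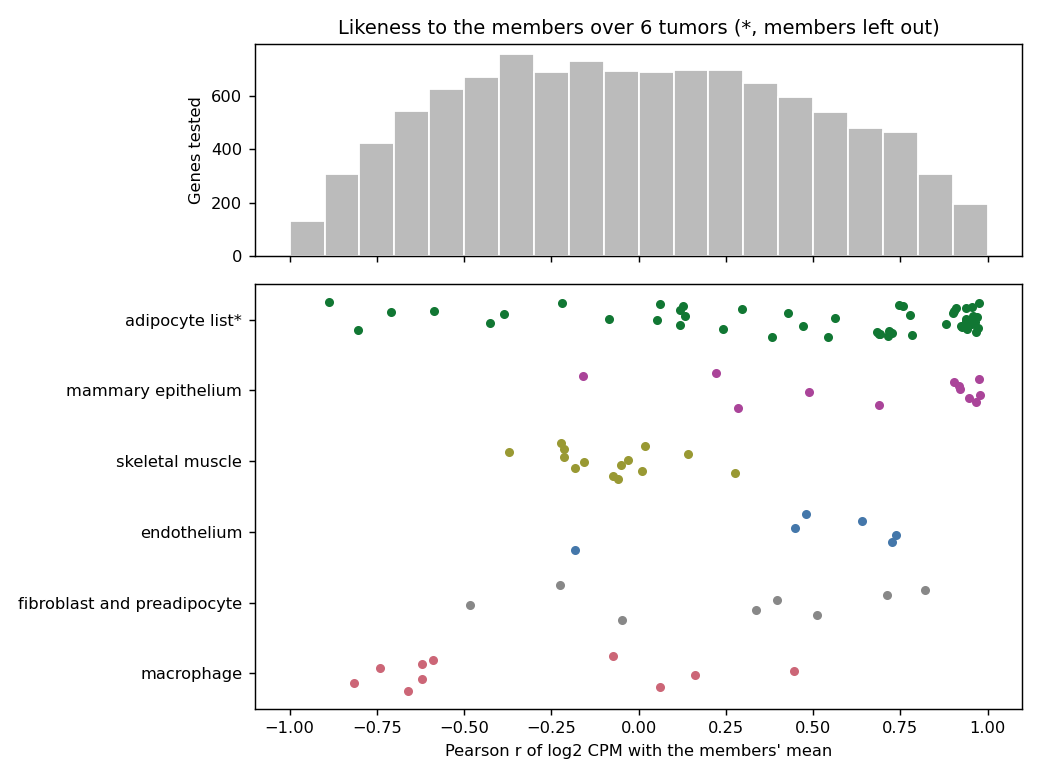
Correlation with the members' mean over 6 tumors (horizontal axis, Pearson r of log2 CPM), as the number of genes tested in each step of 0.1 (upper panel) and for each tested gene of 6 lists (lower panel, 1 point per gene, vertical offset within a list without meaning). Of the adipocyte genes 17 of 50 and of the mammary epithelium genes 7 of 12 lie above 0.9, while the muscle genes lie between -0.37 and 0.28.

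Most markers of mammary epithelium shared the order of the fat cell genes. Of 18 genes listed, 13 were in the table and 12 were tested, of which 8 (66.7%) were higher in control 1, SS 1 and SS 2 than in every other tumor, beside 44.0% of the adipocyte list. Krt19, a luminal keratin, was at 228, 10.8 and 4.51 CPM in control tumors and at 121, 306 and 11.6 CPM in SS tumors. Krt5, a basal keratin of the list that is named here after its values were seen, was at 73.0, 1.13 and 1.43 CPM in control tumors and at 33.9, 26.7 and 0 CPM in SS tumors. Elf5, a regulator of milk-forming cells named in the same way, had 36, 0 and 0 counts in control tumors, with 31, 7 and 0 counts in the SS group. Krt8 and Krt18, the other two genes with the highest mean of that list, did not share the order, at 417 to 544 and 59.4 to 98.0 CPM over all tumors. The list summed to 973, 677 and 517 CPM in control tumors, with 724, 957 and 506 CPM in the SS group. The milk genes Wap, Csn2, Csn3, Csn1s1 and Lalba were not among the genes of the table. The part of epithelial cells in the levels of the 10 genes was not tested.

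Skeletal muscle genes followed another order. None of 14 tested shared that of the fat cell genes, and their sum was 6100, 12400 and 1360 CPM in control tumors, with 354, 25300 and 13400 CPM in the SS group. Myh4, Acta1 and Myh1, the highest of them, were lowest in control 3 or SS 1, and SS 1 was a tumor with high fat cell genes. Beside these sums, Lpl, which muscle also makes, was at 156, 28.6 and 13.7 CPM in control tumors and at 95.1, 93.1 and 55.1 CPM in SS tumors. The part of muscle in Lpl was not tested.

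Of 14 lymph node genes, 4 were in the table and 2 were tested, and both, Cd3e of T cells and Ccr7 of cells that home to lymph nodes, shared the order. Cd3e was at 45.8, 12.0 and 7.62 CPM in control tumors and at 19.9, 12.6 and 4.05 CPM in SS tumors. The B-cell gene Cd79a had 12 counts in control 1 and 0 in every other tumor. The sum of the list was 58.0, 14.2 and 9.59 CPM in control tumors, with 24.6, 18.8 and 6.50 CPM in the SS group, and its part in the levels of the 10 genes was not tested.

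The stromal and immune lists varied with the fat cell genes in few members. Of 6 endothelial genes tested 1 shared the order, with Cdh5, Tie1 and Vwf not among them, and the list summed to between 72.4 and 184 CPM. Of 8 fibroblast and preadipocyte genes 1 did, Dpp4, while Col1a1 and Col3a1 did not, and the sum ran from 7390 to 15200 CPM. No macrophage gene of 10 did, with Csf1r, Mrc1 and Lyz2 the highest, and the sum ran from 851 to 1120 CPM. The median r of the macrophage genes with the members' mean was -0.61. None of 4 tested nerve genes (Mbp, Pmp22 and Prx the highest in the table) and not the 1 tested skin gene, Lor, shared the order. The nerve list summed to between 38.5 and 54.8 CPM and the skin list, with Krt10 and Sbsn beside Lor, to between 1.15 and 10.4 CPM.

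**Figure D5:**
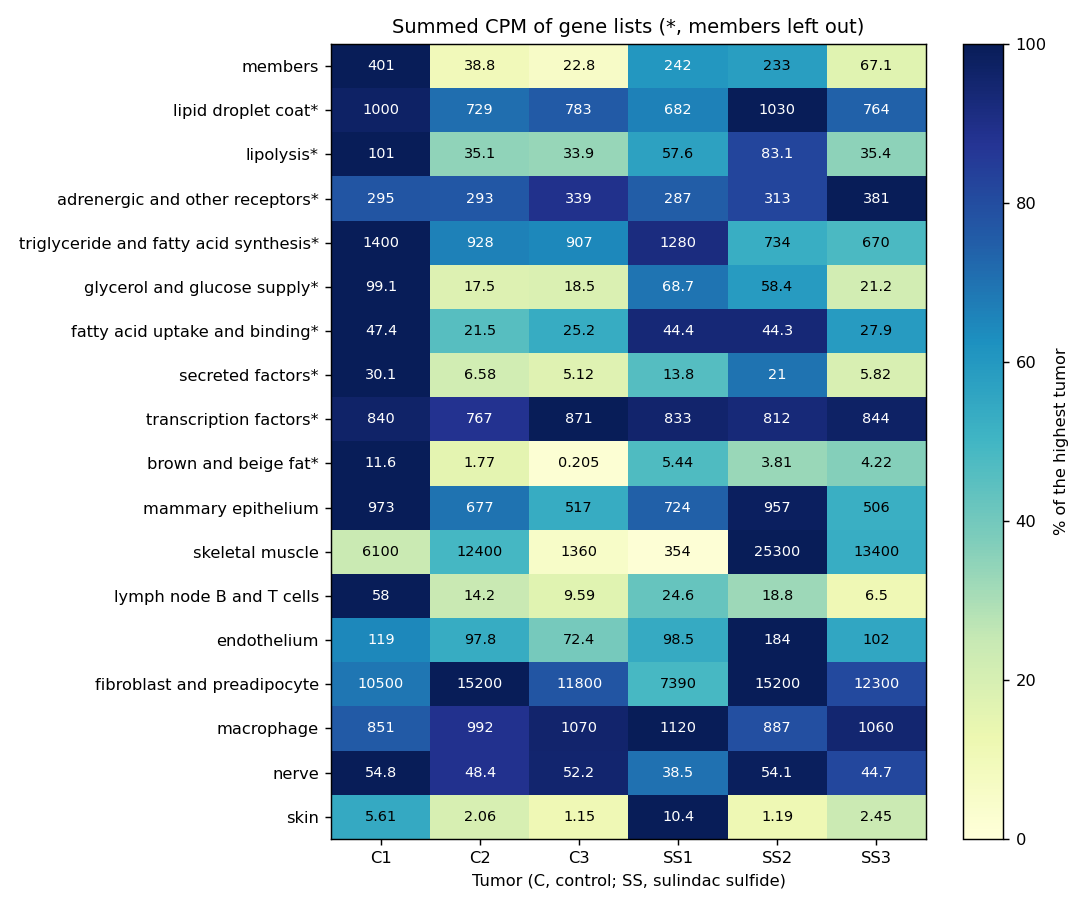
Summed CPM of each gene list (rows) in each tumor (columns: C1 to C3, control; SS1 to SS3, SS-treated), printed in each cell and shaded as a percentage of the highest tumor in that row. The 10 genes in the top row reach 401 CPM in control 1 and fall to 22.8 CPM in control 3, while muscle ranges from 354 CPM in SS 1 to 25300 CPM in SS 2.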

How the data were processed

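Polyadenylated RNA of 6 tumors was sequenced in stranded libraries, 75 nucleotides from each end. Estimated counts for 20648 RefSeq transcripts, as deposited by the authors, carried no normalization, had at least 10 counts each over the tumors and mm10 coordinates. The submitters' processing notes name CASAVA 1.8.1, Bowtie2 2.2.5 and STAR 2.5.3a; the counting tool and its strand setting are not given in the sources used here.

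Here, counts were summed by symbol (21 symbols held as calendar dates were restored) and rounded. Groups followed the labels, and were compared with edgeR 4.0.16 in R 4.3.3 (TMM, filterByExpr, quasi-likelihood test, Benjamini-Hochberg adjustment), with SE as the log2 fold change over the square root of F. Log2 CPM used a prior count of 2. The fit was tested on simulated data. Totals of 8468914 to 24441522 counts set the precision. Alternatives were RLE, upper-quartile and quantile scaling, DESeq2 1.42.0, limma 3.58.1 with voom, other filters, the replicate number as a block, and leaving out each tumor. Members and gene lists (adipocyte roles and other cell types) were chosen with earlier results of these data known. Genes named are the members and their transcripts, genes of the adipocyte list by role, the 3 of highest mean CPM in each other list, and the 10 most alike genes; some listed genes are not reported here by name. Exons, transcript lengths and overlapping genes come from GENCODE M21 (GRCm38).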

Additional observations from a re-analysis of the deposited data

How the results depend on the processing

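The result for the 10 genes depended on control 1 and on the method. In edgeR fits that each left out 1 tumor, 10 members had an unadjusted p under 0.05 without control 1 and 0 without each other tumor. Over all genes, 877 of 11228 (7.81%) had one without control 1. Without each other tumor it was between 520 and 675 of 11240 to 11456 genes. The members' median log2 fold change ranged from -0.31 to 3.98. In those fits the log2 fold change ranged from -1.60 to 7.14 for Plin1, -0.22 to 11.61 for Pck1, -0.61 to 8.57 for Cidea, -0.63 to 10.14 for Ces1d, -0.99 to 4.05 for Adrb3, -0.38 to 2.67 for Dgat2, -0.45 to 3.92 for Fabp4, -0.17 to 1.94 for Lpl and -0.30 to 1.69 for Pparg, changing sign for each, whereas Acacb stayed positive, from 0.54 to 2.28. The upper ends for Pck1, Cidea and Ces1d come from control tumors at 0 and depend on the handling of zeros, as does that for Plin1, from 2 and 0 counts, and for the former 3 genes the bounds against 3 counts are 7.52, 4.47 and 6.05. The levels that chose the members fix the outcome without control 1. With all tumors, DESeq2 called 35 genes where edgeR called 0, limma-voom gave a median of 2.04 for the members and quantile normalization 1.18. Plin1, Ces1d and Adrb3 became positive with quantile normalization, at 1.39, 1.85 and 0.80, and with limma-voom, at 2.74, 3.86 and 1.51; the cause was not tested. Tumors with the same replicate number share only that number (correlations of their deviations 0.116, 0.0205 and 0.0767); with the replicate number as a block, 643 genes had an unadjusted p under 0.05, 0 passed adjustment, the members' median was 1.14, and Plin1, Ces1d and Adrb3 were at 1.23, 1.95 and 0.69. The summed level of the members in each tumor moved by less than the spread between tumors with RLE, upper-quartile and no scaling. Low counts limit Fabp4, Cidea and Adrb3 most.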
